A study of Mus musculus with 10 samples.

Results

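Clock output genes carry the rhythm of the circadian clock to the rest of the cell, and 8 of them were examined in mouse femur. They were the transcription factor genes Dbp, Tef, Hlf, Nfil3, Bhlhe40 and Bhlhe41, with Usp2 and Wee1, which encode an enzyme that removes ubiquitin and a protein kinase and are not transcription factors. Every gene probe of the array that carries one of these names, or an accession of one of these genes, was taken, which gave 14 of 41174 gene probes. Bhlhe40 and Bhlhe41 stand on the array under their older names Bhlhb2 and Bhlhb3. Of the 14 probes, 13 were bright enough to be tested, among 38629 tested probes in all, and each of the 8 genes kept at least 1 probe.

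The unloaded group held 5 male ICR mice aged 6 months that were suspended by the tail for 24 h, so that the hindlimbs bore no weight. The control group held 5 male ICR mice of the same age that moved about freely. Both groups lived in single cages on a reversed cycle of 12 h light and 12 h dark, and the labels used here do not give the hour at which the bones were taken. Total RNA of each femur was hybridised to 1 Agilent one-colour array, so n = 5 animals in each group. The question put to these arrays is whether clock output genes of the bone differ after 24 h without load. ICR is an outbred stock, so the animals of a group are not genetically identical.

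In the circadian clock of mammals, the CLOCK and ARNTL proteins bind DNA elements called E-boxes and switch on their own inhibitors, among them the Per and Cry genes, together with output genes such as Dbp. DBP, TEF and HLF, the factors of the PAR bZIP family, activate genes through a second element, the D-box, and NFIL3 binds the same element as a repressor. BHLHE40 and BHLHE41, also called DEC1 and DEC2, repress at E-boxes and so act back on the clock. Clocks of this kind run in bone cells and in marrow cells, and both were in the RNA measured here.

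Promoter windows from RefSeq, on mouse build GRCm38.p6, reach from 250 bases before to 50 bases after a start position of the gene. There were 7 windows for 6 of the 8 genes, with none used for Bhlhe40 and Wee1. A window need not lie at the outer end of its gene. That of Usp2 lies inside the gene, which begins at 44067021. The Nfil3 window lies inside a gene of the minus strand whose outer end is at 52982878. The outer ends of Usp2 and Nfil3 were not searched. Those of Bhlhe41 and Usp2 are shown, 5′ to 3′ on the strand of the gene, because these genes had the largest differences between the groups. Capitals mark the E-box CACGTG.
Bhlhe41, chr6:145865371-145865670, minus strand: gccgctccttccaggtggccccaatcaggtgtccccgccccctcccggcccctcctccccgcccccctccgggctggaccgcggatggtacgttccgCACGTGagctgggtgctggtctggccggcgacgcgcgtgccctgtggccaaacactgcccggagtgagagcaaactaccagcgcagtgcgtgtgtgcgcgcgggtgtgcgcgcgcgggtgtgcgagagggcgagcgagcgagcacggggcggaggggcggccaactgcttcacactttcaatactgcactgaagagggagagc
Usp2, chr9:44084670-44084969, plus strand: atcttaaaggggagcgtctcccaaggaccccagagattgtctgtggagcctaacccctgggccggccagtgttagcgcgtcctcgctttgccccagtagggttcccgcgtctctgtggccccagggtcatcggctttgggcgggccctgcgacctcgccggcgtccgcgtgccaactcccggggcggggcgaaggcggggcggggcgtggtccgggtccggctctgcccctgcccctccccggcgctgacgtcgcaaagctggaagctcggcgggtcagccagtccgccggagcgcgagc
The Bhlhe41 window holds 1 E-box, with its first base at -153 from the start. Both Tef windows hold an E-box too, at -127 and -138. The E-box letters are in 7.15% of the 32851 windows of the table. The Usp2 and Dbp windows held none of the motifs searched, which were, on both strands, CACGTG, its variant CACGTT, the D-box forms TTATGTAA and TTACGTAA, the cyclic AMP element TGACGTCA and AGGTCA, the core of the element bound by ROR and REV-ERB receptors. Hlf held TGACGTCA at -9, which is in 1.79% of all windows, and Nfil3 held AGGTCA on the opposite strand at -12, which is in 16.3%. CACGTT was in 4.68%, TTATGTAA in 0.938% and TTACGTAA in 0.119% of all windows. A match says only that the letters are there.

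Levels are given as log2 of the processed signal relative to the 75th percentile of the same array, and differences are unloaded minus control on that scale. Since each probe has its own brightness, levels were compared between animals and not between probes. The 75th percentile lay between 636.5 and 903.3 intensity units, and the scanner called 89.79% to 95.5% of spots per array well above background. The processed signals of the 13 tested probes were all well above background on all 10 arrays. Unloaded 5 stood somewhat apart, with a mean correlation of 0.973 to the other arrays across probes, against 0.984 to 0.987 for the remaining 9. The arrays lay on 3 slides. Slide 1 held 4 controls, slide 2 held 3 unloaded animals and 1 control, and slide 3 held 2 unloaded animals. A slide effect and a group effect can therefore be told apart only within slide 2, against a single control. Markers of bone were bright. The summed signal of 9 osteoblast and osteocyte genes was 317 to 399 times the array's 75th percentile in unloaded 1, 2, 4 and 5. Control animals had 284 to 338 times. In unloaded 3 a gene of this list had no value after outlier spots were left out, so its sum of 188 cannot be compared. Marrow was present too, with 7 neutrophil and precursor genes at 770 to 833 times in unloaded 1, 2, 4 and 5. Control animals had 732 to 862 times. Unloaded 3 lacked a value in this list as well, so its sum of 737 cannot be compared either. Attached muscle was seen as well, with 8 skeletal muscle genes at 106 to 216 times in unloaded and 84.8 to 213 times in control animals. Over 12 lists of cell type and proliferation markers 0 genes were called, and the median differences were -0.35 for proliferation, -0.16 for muscle, adipocytes and erythroid cells, -0.14 for monocytes, -0.125 for B cells, -0.07 for endothelium, 0.01 for neutrophils, 0.06 for osteoclasts, 0.08 for osteoblasts and osteocytes, 0.15 for the T and NK cell list, and 0.30 for cartilage genes. The part of any difference in cell types in the results was not tested.

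None of the 8 clock output genes was called after 24 h of unloading. Tests used limma, a linear model that draws the variance of each probe toward a value common to all. A probe was called when its p from limma was below 0.05 after Benjamini-Hochberg adjustment over all tested probes. Over the whole array 1 probe, that of the stress-induced mTOR inhibitor Ddit4, passed, which is 0.00259% of those tested. At an unadjusted p below 0.05, 1 of the 8 genes was past the threshold, Bhlhe41, against 16.1% of all tested probes (10.2% higher and 5.92% lower in unloaded). The groups overlapped for all 8 genes, whereas they did not overlap for 3.16% of all tested probes (1.51% higher and 1.65% lower in unloaded). The 8 differences ran from -0.04 to 0.28, with 5 above and 3 below 0, and their median was 0.10 beside a median of 0.07 over all tested probes. In whole bone, a difference in the number of cells of a type and a difference in RNA per cell cannot be told apart.

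**Figure D1:**
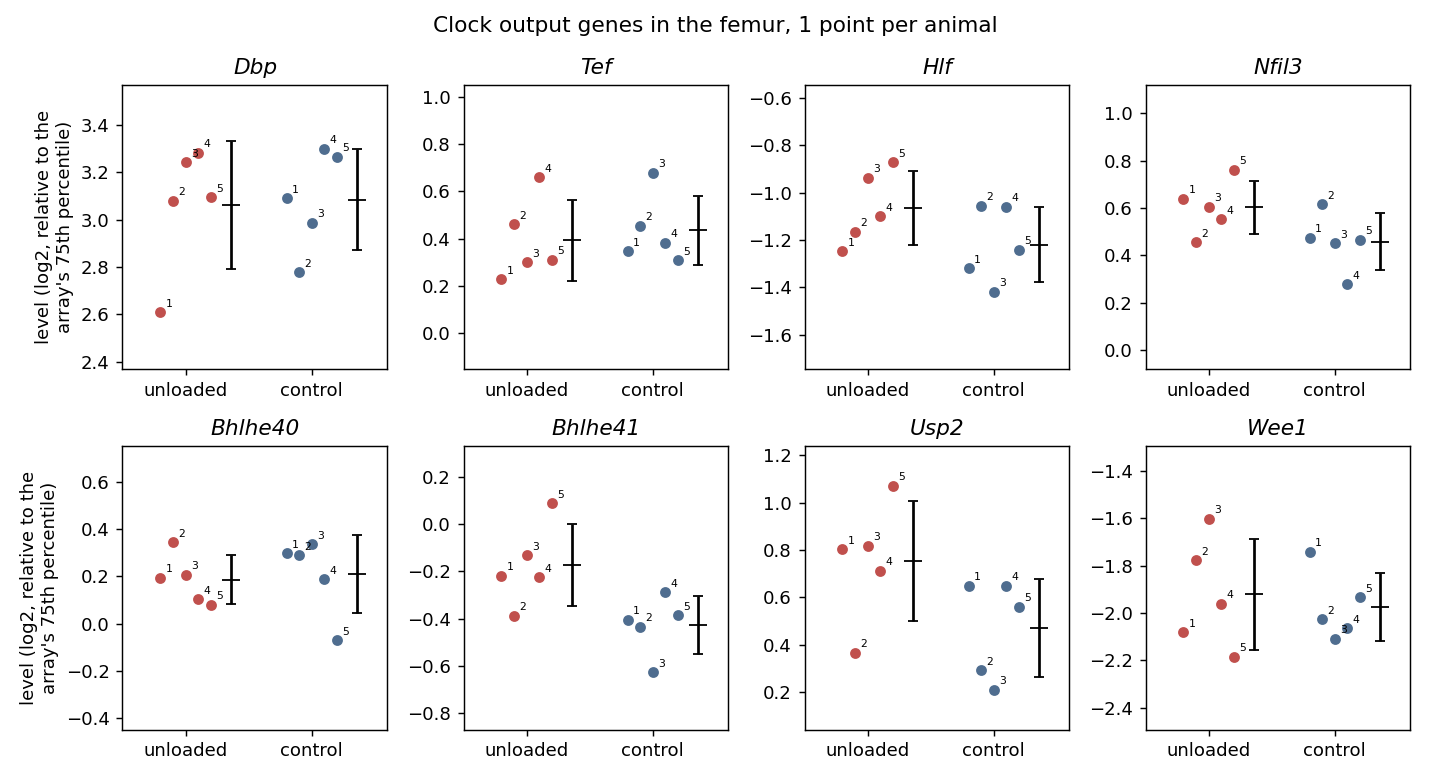
Level of each clock output gene in every animal, as log2 of the processed signal relative to the array's 75th percentile (vertical axis), for unloaded (left, red) and control animals (right, blue). Points are animals with their replicate numbers, and bars give the group mean and SD (n = 5 each). The ranges of the groups overlap in all 8 panels, each of which has a range of its own on the vertical axis.

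Among the 3 PAR bZIP activators, Dbp is the one whose transcript is known for the widest daily swing in many tissues. The Dbp probe read 2.61, 3.08, 3.24, 3.28 and 3.10 in unloaded animals 1 to 5, against 3.09, 2.78, 2.99, 3.30 and 3.27 in control animals 1 to 5. The lowest value belonged to unloaded 1, and the other 4 unloaded values lay inside the control range. Dbp averaged 3.06 ± 0.27 in unloaded and 3.08 ± 0.21 in control animals (SD, n = 5 each), a difference of -0.02 with a 95% interval from -0.33 to 0.28 (limma adjusted p = 0.940). The difference was 0.09 without unloaded 1, -0.29 within slide 2, and 0.02 and 0.03 with quantile normalization and cyclic loess.

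Tef, the second activator, had 4 probes, and the one with the highest level stood for the gene. It read 0.23, 0.46, 0.30, 0.66 and 0.31 in unloaded animals 1 to 5, against 0.35, 0.46, 0.68, 0.38 and 0.31 in control animals 1 to 5. The groups covered nearly the same range. Means were 0.39 ± 0.17 in unloaded and 0.43 ± 0.15 in control animals (SD, n = 5 each), and the difference was -0.04 with a 95% interval from -0.28 to 0.19 (limma adjusted p = 0.848). The other 2 tested Tef probes had the opposite sign, at 0.25 (SE 0.13, limma adjusted p = 0.334) and 0.22 (SE 0.13, limma adjusted p = 0.385). The last Tef probe, designed to a cDNA clone, was well above background on 3 of 5 arrays in each group and was not tested. No direction can be given for Tef, since its probes disagree. Over the 10 arrays, with group means removed, Pearson r between the tested Tef probes lay between -0.35 and 0.18 (adjusted permutation p of 0.545 or more).

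Hlf, the third activator, read -1.25, -1.16, -0.94, -1.10 and -0.87 in unloaded animals 1 to 5, against -1.32, -1.06, -1.42, -1.06 and -1.24 in control animals 1 to 5. Unloaded 3 and unloaded 5 lay above every control, and the other 3 unloaded values lay among the controls. The means were -1.06 ± 0.16 in unloaded and -1.22 ± 0.16 in control animals (SD, n = 5 each). The difference of 0.16 had a 95% interval from -0.08 to 0.39 (limma adjusted p = 0.451) and was 0.13 within slide 2.

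Nfil3, the repressor that competes with the activators for the D-box, read 0.64, 0.45, 0.61, 0.55 and 0.76 in unloaded animals 1 to 5, against 0.47, 0.62, 0.45, 0.28 and 0.47 in control animals 1 to 5. Unloaded 1 and unloaded 5 exceeded the highest control, control 2, and control 4 lay below all other animals. Its means were 0.60 ± 0.11 in unloaded and 0.46 ± 0.12 in control animals (SD, n = 5 each), a difference of 0.15 with a 95% interval from -0.06 to 0.35 (limma adjusted p = 0.424). The second Nfil3 probe differed by 0.04 (SE 0.11, limma adjusted p = 0.871), and over the 10 arrays the probes had r = 0.01 and rho = -0.09 (permutation p of r = 0.974, adjusted 0.974).

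Because repressor and activators share an element, the log2 level of Nfil3 minus that of each activator was compared per animal by an exact two-sided permutation test over every assignment of 5 of the 10 animals. With the value of Bhlhe40 minus Bhlhe41 given further on, 4 such values were tested. Nfil3 minus Dbp averaged -2.46 ± 0.31 in unloaded and -2.63 ± 0.32 in control animals (difference 0.17, exact p = 0.444, adjusted 0.593). For Tef the means were 0.21 ± 0.25 in unloaded and 0.02 ± 0.18 in control animals (difference 0.19, exact p = 0.206, adjusted 0.413). For Hlf they were 1.67 ± 0.13 in unloaded and 1.68 ± 0.20 in control animals (difference -0.01, exact p = 0.921, adjusted 0.921). Each offset holds the brightness of 2 probes, so only its difference between groups can be read, and none of the 3 differences passed the test. The other 2 tested Tef probes differed by 0.25 and 0.22, against 0.15 for the Nfil3 probe used. No direction can therefore be given for Nfil3 minus Tef.

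Bhlhe40, the first of the E-box repressors, read 0.19, 0.35, 0.21, 0.10 and 0.08 in unloaded animals 1 to 5, against 0.30, 0.29, 0.34, 0.19 and -0.07 in control animals 1 to 5. The lowest value, control 5, was that of the only control on slide 2. Its means were 0.19 ± 0.10 in unloaded and 0.21 ± 0.17 in control animals (SD, n = 5 each), a difference of -0.02 with a 95% interval from -0.24 to 0.20 (limma adjusted p = 0.916). Within slide 2 the difference was 0.32, which rests on control 5 and lies outside that interval.

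Bhlhe41, the second E-box repressor, had the smallest p of the 8 genes. It read -0.22, -0.39, -0.13, -0.22 and 0.09 in unloaded animals 1 to 5, against -0.40, -0.43, -0.63, -0.29 and -0.39 in control animals 1 to 5. Unloaded 2 lay among the controls, and the other 4 unloaded animals lay above all 5. The means were -0.17 ± 0.17 in unloaded and -0.43 ± 0.12 in control animals (SD, n = 5 each). The difference of 0.25, or 1.19-fold, had a 95% interval from 0.03 to 0.48, an unadjusted p of 0.0318 and a limma adjusted p of 0.285. Of the 18955 genes with a tested probe and a current symbol, 10.89% had a smaller p. The second Bhlhe41 probe differed by 0.13 (SE 0.13, limma adjusted p = 0.588), and the first probe differed by 0.14 within slide 2 and by 0.19 without unloaded 5 (limma unadjusted p = 0.0742). Bhlhe40 minus Bhlhe41 averaged 0.36 ± 0.26 in unloaded and 0.64 ± 0.25 in control animals, a difference of -0.28 (exact permutation p = 0.135, adjusted 0.413). Within slide 2, against its single control, this difference had the opposite sign, at 0.18.

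Usp2 encodes a deubiquitinase whose transcript is rhythmic in many mouse tissues and whose substrates include clock proteins. Its brighter probe, designed to a cDNA clone, read 0.80, 0.37, 0.82, 0.71 and 1.07 in unloaded animals 1 to 5, against 0.65, 0.29, 0.21, 0.65 and 0.56 in control animals 1 to 5. As with Bhlhe41, unloaded 2 lay among the controls and the other 4 unloaded animals lay above all 5. The means were 0.75 ± 0.25 in unloaded and 0.47 ± 0.21 in control animals (SD, n = 5 each), a difference of 0.28, or 1.22-fold, with a 95% interval from -0.01 to 0.57 (unadjusted p = 0.0582, limma adjusted p = 0.321). The second Usp2 probe, designed to the reference transcript, read -0.76, -1.07, -1.11, -1.03 and -1.41 in unloaded animals 1 to 5, against -1.34, -0.70, -0.81, -0.85 and -1.06 in control animals 1 to 5. It differed by -0.12 (SE 0.14, 95% interval -0.42 to 0.18, limma adjusted p = 0.647), the opposite sign. Across the 10 arrays the probes did not correlate positively (r = -0.53, rho = -0.61, permutation p of r = 0.112, adjusted 0.450 over 10 relations between probes). No direction can be given for Usp2, and the difference of the brighter probe was 0.10 within slide 2 and 0.20 without unloaded 5.

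Wee1 encodes the kinase that holds CDK1 inactive before mitosis, and its transcript is under clock control in mouse liver. It read -2.08, -1.78, -1.60, -1.96 and -2.18 in unloaded animals 1 to 5, against -1.74, -2.03, -2.11, -2.07 and -1.93 in control animals 1 to 5. The unloaded values enclosed the control values, with unloaded 3 highest and unloaded 5 lowest of all 10. Means were -1.92 ± 0.23 in unloaded and -1.98 ± 0.15 in control animals (SD, n = 5 each), a difference of 0.05 with a 95% interval from -0.21 to 0.32 (limma adjusted p = 0.825). Its sign turned with the scaling, to -0.04 with median scaling, -0.05 with quantile normalization and -0.06 with cyclic loess.

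**Figure D2:**
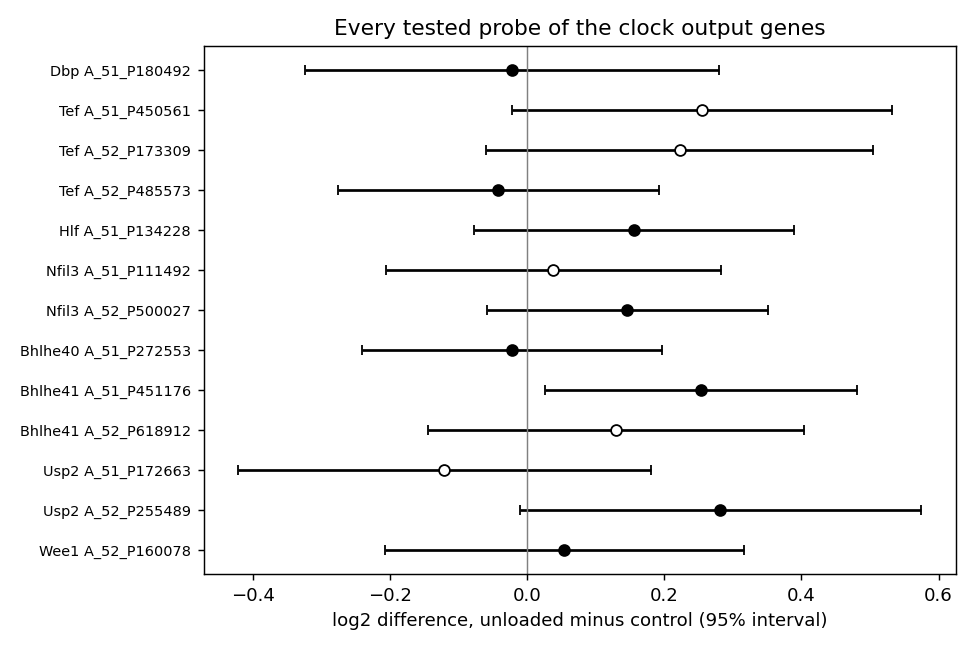
Difference of each of the 13 tested probes, unloaded minus control on the log2 scale (horizontal axis), with its 95% interval from limma. Filled points mark the probe that stands for the gene. The interval of 1 probe, the first of Bhlhe41, excludes 0, and probes of Tef and Usp2 lie on both sides of 0.

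The 8 genes were then set against each other across the 10 animals, after each group's mean had been removed, to see which varied together. Of the 28 pairs, 1 passed at an adjusted p below 0.05. Bhlhe41 and the brighter Usp2 probe had a Pearson r of 0.909 (permutation p = 0.00019, adjusted over 28 pairs 0.00532) and a Spearman rho of 0.879 (permutation p = 0.00187, adjusted 0.0524). Without the 2 animals farthest from the median of Bhlhe41, r was 0.81. It was 0.886 after quantile normalization (adjusted permutation p = 0.0218). Relative to its group's mean, unloaded 5 was highest and unloaded 2 lowest for both genes, and control 3 was also low for both. Hlf and Bhlhe41 came next, with r = 0.76 and rho = 0.782 (permutation p of r = 0.00786, adjusted 0.110; of rho = 0.0101, adjusted 0.142). The largest negative r, -0.61, was that of Tef and Usp2 (rho = -0.539, permutation p of r = 0.0599, adjusted 0.393; of rho = 0.113, adjusted 0.385). A slide held at most 4 arrays, too few for a correlation within slides. The share of gene pairs over the whole array that correlate as closely is not given here. The relation can therefore not be called particular to Bhlhe41 and Usp2.

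With the other probes of these genes the relation did not pass. Bhlhe41's first probe against the second Usp2 probe gave r = -0.466 and rho = -0.442 (permutation p of r = 0.174, adjusted 0.450 over 10 relations), and Bhlhe41's second probe gave r = 0.461 and rho = 0.345 with the brighter Usp2 probe (permutation p of r = 0.180, adjusted 0.450). With the other Usp2 probe it gave r = -0.41 and rho = -0.515 (permutation p of r = 0.242, adjusted 0.485). The 2 Bhlhe41 probes had r = 0.284 and rho = 0.273 between them (permutation p of r = 0.430, adjusted 0.615). Of the 4 combinations of probes, 1 thus passed.

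**Figure D3:**
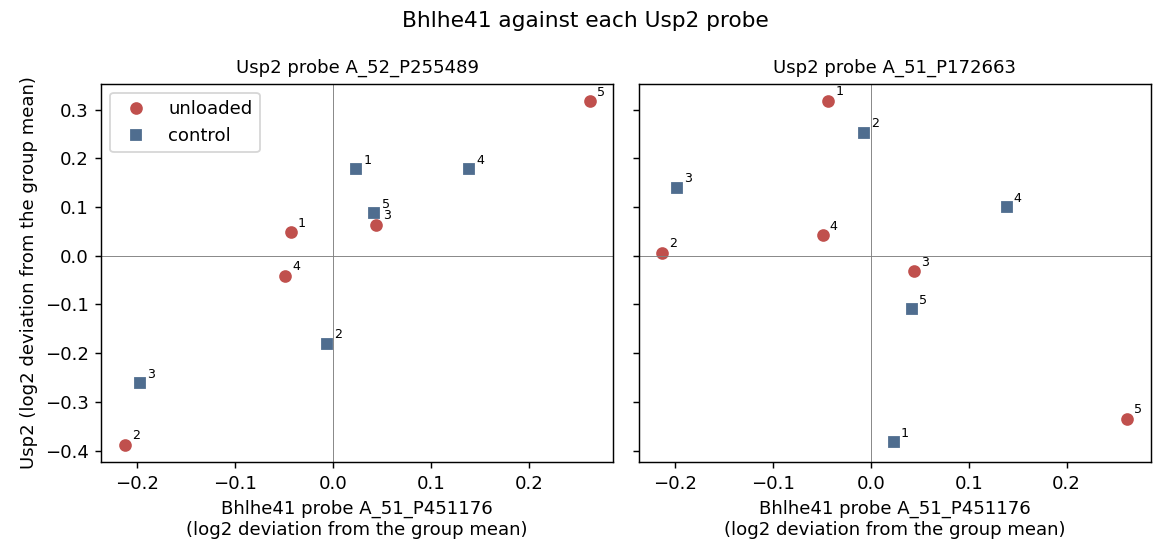
Deviation of each animal from its group mean on the log2 scale, for the first Bhlhe41 probe (horizontal axes) against the brighter Usp2 probe (left) and the second Usp2 probe (right). Red circles are unloaded and blue squares control animals, with replicate numbers. The points rise together on the left (r = 0.909) and not on the right (r = -0.466).

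The same 2 probes followed a property of the whole array. After scaling, the median over all gene probes was -1.29, -1.41, -1.31, -1.30 and -1.23 in unloaded animals 1 to 5, against -1.35, -1.43, -1.49, -1.37 and -1.37 in control animals 1 to 5. It averaged -1.31 ± 0.06 in unloaded and -1.40 ± 0.06 in control arrays (SD, n = 5 each), and the difference of 0.10 had an exact permutation p of 0.0397. With group means removed, the brighter Usp2 probe correlated with that median at r = 0.97 and rho = 0.964 (permutation p of r = 1e-05, the smallest the resamples can give, adjusted 8e-05 over the 8 genes), and at 0.94 without the 2 farthest arrays. Bhlhe41 correlated with it at r = 0.89 and rho = 0.77 (permutation p of r = 0.00091, adjusted 0.00364; rho adjusted 0.0503), and at 0.71 without the 2 farthest arrays. The adjusted permutation p of r was 0.118 or more for the other 6 genes, Bhlhe40 being nearest at r = -0.646. With the array median as a covariate, the difference of Bhlhe41 was 0.05 (limma unadjusted p = 0.645) and that of the brighter Usp2 probe -0.07 (limma unadjusted p = 0.481). These relations were examined after the values of the 2 genes had been seen, and the part of the array median in the differences was not tested further. The share of all tested probes that follow the median as closely is not given here, so the relation cannot be called particular to these genes.

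For each gene the 3 genes with the highest Pearson r across the 10 animals, group means removed, were taken from 17728 genes. Dbp was most like Arv1 (0.943), Apobec3 (0.937) and Catsperg2 (0.931), Tef most like Rexo2 (0.921), and Hlf most like Zswim2 (0.946). Nfil3 was most like Cyp2c40 (0.916) and Bhlhe40 most like Pcdhb20 (0.984). Bhlhe41 was most like Taar9 (0.995), Polr3b (0.989) and Fgf6 (0.985), while Usp2 was most like Khdc1a (0.992), Hspa2 (0.981) and Rnf122 (0.981). The gene most like Wee1 was Fam222a (0.940). These are the largest of many values over 10 arrays that share slides and the array-wide level. No core clock gene was among the 3 nearest of any of the 8. Such genes are few among the 17728, and only the highest positive r was ranked, so their absence carries little weight.

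Core clock genes were compared as the machinery upstream of the outputs. All 19 were tested and 0 were called, with 11 positive and 8 negative differences and a median of 0.06. Per1, a clock inhibitor that also responds quickly to stress hormones, had the largest difference, with means of 0.79 ± 0.37 in unloaded and -0.13 ± 0.15 in control animals (SD, n = 5 each). All 5 unloaded animals lay above all 5 controls for Per1, at 1.89-fold (limma adjusted p = 0.153). Timeless, which acts mainly in DNA replication in mammals, was the other of the 2 core clock genes without overlap, beside 3.16% of all probes, at -0.27 (SE 0.11, limma adjusted p = 0.271). At an unadjusted p below 0.05 there were 3 higher genes, Per1, Nr1d1 (0.35, with 1 of 3 probes on that side) and Npas2 (0.42), and 2 lower ones, Timeless and Arntl (-0.20), beside 10.2% higher and 5.92% lower of all tested probes. Dbp, like Per1 a target of CLOCK and ARNTL through E-boxes, had -0.02 in the same arrays. The limma interval of Dbp was wide, from -0.33 to 0.28. The cause of the Per1 difference was not tested.

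**Figure D4:**
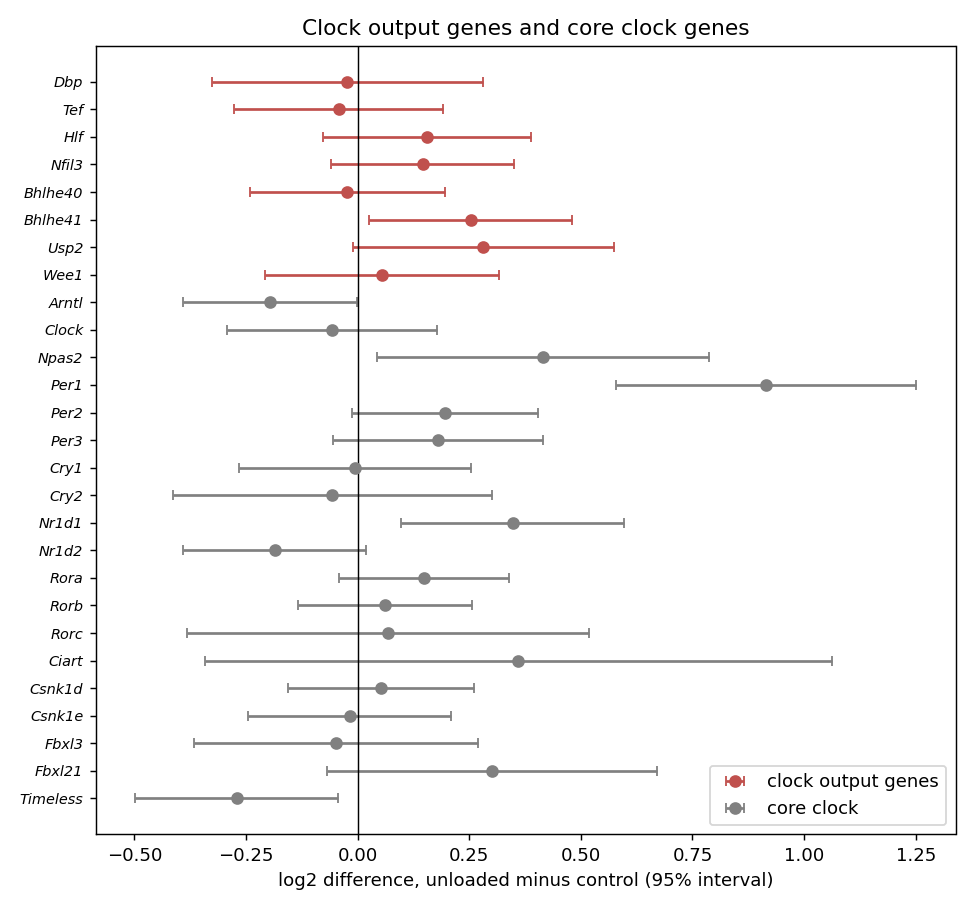
Differences, unloaded minus control on the log2 scale (horizontal axis), with 95% intervals from limma, for the 8 clock output genes (red) and the 19 core clock genes (grey). Per1 lies at 0.92, and the 8 output genes lie between -0.04 and 0.28.

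Genes known as targets of the PAR bZIP factors in liver, kidney or brain were all tested (10 of 10), and 0 were called. Of them 8 had a positive and 2 a negative difference, with a median of 0.12. Cyp7a1, the rate-limiting enzyme of bile acid synthesis in liver, had 0.24 (SE 0.17, limma adjusted p = 0.446), and Alas1, the first enzyme of haem synthesis, -0.16 (SE 0.12, limma adjusted p = 0.481). Among 13 genes induced by hypoxia-inducible factor, as Bhlhe40 and Bhlhe41 are, 0 were called and the median was 0.01. The glucose transporter gene Slc2a1 had the highest difference, 0.31 (SE 0.11, limma adjusted p = 0.258), and P4ha1 the lowest, -0.33 (SE 0.16, limma adjusted p = 0.328). Ldha had 0.25 (SE 0.14, limma adjusted p = 0.359). The growth factor gene Vegfa had -0.16 (SE 0.09, limma adjusted p = 0.372), with 2 of 3 probes on that side.

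Of the 10 partners of Wee1 at entry into mitosis, 0 were called, 5 were positive and 5 negative, and the median was -0.04. Ccna2, a cyclin of S phase and G2, had the lowest difference, -0.33 (SE 0.12, limma adjusted p = 0.254), whereas Cdk1, the target of WEE1, had 0.05 (SE 0.12, limma adjusted p = 0.819). The summed signal of 6 proliferation markers was 97.7 to 114 times the 75th percentile in unloaded and 108 to 125 times in control animals. Among 9 other ubiquitin-specific proteases, 0 were called and 8 had a negative difference, with a median of -0.11. Usp21 had -0.31 (SE 0.12, limma adjusted p = 0.274) and Usp8 -0.21 (SE 0.10, limma adjusted p = 0.310).

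Relatives of NFIL3 and of the BHLHE40 family were tested for 8 of 9 listed genes, and 0 were called. Their differences had a median of 0.18, with 5 positive and 3 negative. Cebpb, a bZIP factor of myeloid cells and of stress responses, averaged 3.39 ± 0.35 in unloaded and 2.93 ± 0.08 in control animals (SD, n = 5 each), a difference of 0.46 (SE 0.15, limma adjusted p = 0.245). Hes1 had 0.25 (SE 0.12, limma adjusted p = 0.334), Heyl 0.22 (SE 0.13, limma adjusted p = 0.382) and Cebpd 0.23 (SE 0.16, limma adjusted p = 0.439). The lowest difference was that of Cebpa, -0.23 (SE 0.19, limma adjusted p = 0.513), with 1 of 2 probes on that side.

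**Figure D5:**
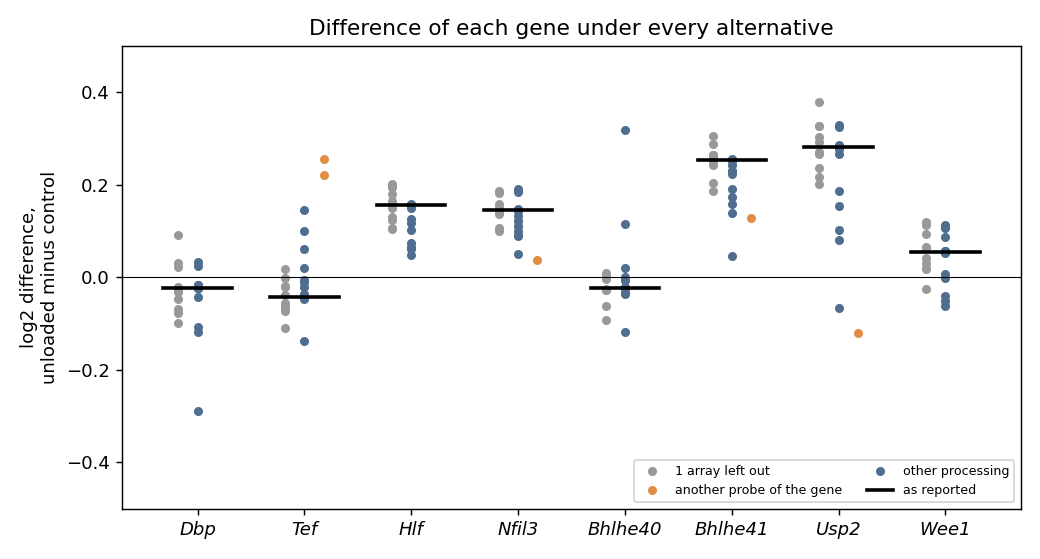
Log2 difference of each clock output gene, unloaded minus control (vertical axis), as reported (black line) and under each alternative. Grey points leave out 1 array, blue points change the processing and orange points use another probe of the gene. Hlf, Nfil3 and Bhlhe41 stay above 0 throughout, from 0.05 to 0.20, 0.04 to 0.19 and 0.05 to 0.31, and Usp2 runs from -0.12 to 0.38.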

How the data were processed

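Femur RNA of 5 unloaded and 5 control mice was measured on Agilent one-colour arrays, 1 array per animal. The deposited scanner files hold linear spot intensity. Agilent Feature Extraction 9.1.3.1 had corrected background and detrended within each array, per the file headers, and arrays were not scaled to each other. The series matrix held the same intensity values to within 0.995 to 1.005.

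From the gene spots, 97 marked as outliers were left out (0 of the clock output genes), spots of a probe were averaged as log2, and each array's 75th percentile over gene probes was subtracted. Taking the percentile over probes instead of spots was decided after results had been seen. Tested probes were well above background on 4 or more of the 5 arrays of either group, with values on 3 or more per group. Names came from a RefSeq list. The comparison used limma 3.58.1 (R 4.3.3), two-sided, with no covariate and Benjamini-Hochberg adjustment over 38629 probes. Correlations used 100000 permutations (scipy 1.17.1). The procedure was tested on simulated data. The number of arrays limits the precision.

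The genes named are all 8 clock output genes with every probe, the tested probe with the highest mean standing for a gene, and genes of 6 related lists and 12 marker lists, described by their counts. The members and lists were chosen with earlier results of these data known. Alternatives covered background, scaling, filter, variance model, weights, covariates, slide, replicate number, probe and each array left out.

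The labels number animals within a group and do not say that the numbers pair them, so the main comparison used no pairing. Deviations of the 5 same-numbered pairs from their group means correlated at -0.05, 0.18, -0.11, -0.14 and 0.07. These values cannot decide whether the animals were paired.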

Additional observations from a re-analysis of the deposited data

Results flagged for a closer look

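No result stood out by the checks made. In 26 groups of 5 animals, the 13 tested probes in each group, 0 held an animal whose gap to the nearest other exceeded Dixon's 95% critical value of 0.71 of the group's range, a limit that chance passes in about 1 of 20 groups.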

How the results depend on the processing

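None of the 8 genes was called in any alternative. Of 257 alternatives of single results, 227 kept the direction and the side of the threshold, and 30 turned the sign. As no gene was called, the adjusted threshold could not tell these apart. The unadjusted limma p of Bhlhe41 did exceed 0.05 in several. It was 0.103 with median scaling, 0.104 with body weight and 0.0886 as the mean of its probes. Without control 2, control 3 and unloaded 3 in turn it was 0.0543, 0.0838 and 0.0617. The array median, the second probe and leaving out unloaded 5 also raised it above 0.05. It stayed below in the others, with slide as a fixed block (1 control) set aside. Over all probes, the count of calls was 3 with trend and robust variance, 3 with slide as a fixed block, 0 with body weight and 0 with the array median as a covariate, and 0 to 2 with 1 array left out (2 without control 2, 0 without control 4, control 5 or unloaded 4). The count of genes whose groups do not overlap was 0 to 2 with 1 array left out, the 2 being Bhlhe41 and Usp2 without unloaded 2. Unloaded 2 was the only unloaded animal among the controls for both genes, so leaving it out had to separate their groups. The share of all tested probes without overlap in that setting is not given here, so the 2 cannot be read as a result.

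Signs turned as follows. Bhlhe40 had 0.0007 with normexp background, 0.020 with body weight, 0.12 with the array median and 0.32 with slide as a fixed block. Wee1 had -0.0019 with normexp background, -0.041 with median scaling, -0.052 with quantile normalization and -0.063 with cyclic loess. Dbp had 0.024 with quantile normalization and 0.033 with cyclic loess. Tef had 0.062 with body weight, 0.10 with the array median, 0.021 with slide, 0.14 as the mean of its probes, and 0.25 and 0.22 by its other probes. Usp2 had -0.067 with the array median and -0.12 by its other probe. Nfil3 minus Hlf was 0.12 with quantile normalization. With 1 array left out, Dbp ran from -0.099 to 0.091, Tef from -0.11 to 0.019, Bhlhe40 from -0.093 to 0.0091, Wee1 from -0.026 to 0.12 and Nfil3 minus Hlf from -0.094 to 0.039. The causes were not tested.

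With the replicate number as a block, Usp2 had 0.28 (unadjusted p = 0.0379, limma adjusted p = 0.284) and Bhlhe41 0.25 (limma adjusted p = 0.294), and the replicate block changed no call. The random block for slide had a within-slide correlation of -0.03. Median scaling moved the median of all tested probes by -0.10. The array median and the percentile over spots were added after seeing the data, and the percentile over spots turned no sign. Slide 2, with 1 control, limits what can be said of slide.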
